A study of Mus musculus with 9 samples.

Results

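The 10 genes Mcpt4, Cma1, Tpsb2, Cpa3, Kit, Fcer1a, Ms4a2, Hdc, Mrgprb1 and Mrgprb2 encode granule proteases, receptors and a mediator enzyme of mouse mast cells. They were found by symbol among 55342 gene names, and all 10 were present in each of the 9 libraries and passed the filter on low counts. The libraries hold polyadenylated RNA of labial mucosa, the lining of the lip, with 3 libraries each from mice labelled Tac111, Tac146 and B6. Mice of all 3 strains had been infected before the biopsy, with an agent that the sources used here do not give, and no genotype, age or sex is stated. The cell type label reads T cells for the Tac111 and Tac146 libraries and ILC1 cells (a type of innate lymphoid cell) for the B6 libraries. Values are CPM (counts scaled to the same library size), computed from the deposited expected counts with TMM-scaled library sizes, and fold changes and adjusted p-values come from edgeR's quasi-likelihood test with Benjamini-Hochberg adjustment over 16523 genes.

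Mast cells are tissue-resident cells of the blood lineage that mature in connective tissue and mucosa under the growth factor KIT ligand, sensed by the receptor tyrosine kinase KIT. Their granules store chymases, tryptases and a carboxypeptidase bound to proteoglycan, together with histamine. The cells release them when antigen links IgE on the high-affinity receptor FcεRI, or when basic peptides reach the receptor encoded by Mrgprb2. Mouse mast cells of connective tissue carry Mcpt4, Cma1, Tpsb2 and Cpa3, while those of inflamed mucosal epithelium are known for Mcpt1 and Mcpt2.

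Promoters are shown because GATA factors and MITF are known regulators of mast cell genes. RefSeq sequences of GRCm38.p6, 250 bases before the start, were given for 9 of the 10 genes, all but the protease gene Tpsb2. The GATA hexamers AGATAA with its variant AGATAG, and TGATAA with its variant TGATAG, were searched on both strands and lay in 8 of the 9 promoters, all but that of Kit, against 26.5% of 32851 promoters of this length. The hexamers CATGTG and, as a variant, CACGTG, sites of the kind MITF is known to bind, lay on either strand in 1 of the 9, that of Fcer1a, against 17.6% of all. A match is a description of letters and shows no binding. In the following sequences, written 5′ to 3′ on the strand of the gene, capitals mark GATA hexamers on either strand. The windows are chr14:56062311-56062560 for Mcpt4, chr14:55944676-55944925 for Cma1, chr3:20242182-20242431 for Cpa3 and chr19:11623720-11623969 for Ms4a2, all on the minus strand, and chr5:75574737-75574986 on the plus strand for Kit.
Mcpt4: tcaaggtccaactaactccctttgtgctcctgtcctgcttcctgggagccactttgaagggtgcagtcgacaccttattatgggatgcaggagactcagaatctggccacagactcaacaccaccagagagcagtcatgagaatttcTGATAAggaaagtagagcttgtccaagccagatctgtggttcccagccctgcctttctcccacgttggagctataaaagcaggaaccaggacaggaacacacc
Cma1: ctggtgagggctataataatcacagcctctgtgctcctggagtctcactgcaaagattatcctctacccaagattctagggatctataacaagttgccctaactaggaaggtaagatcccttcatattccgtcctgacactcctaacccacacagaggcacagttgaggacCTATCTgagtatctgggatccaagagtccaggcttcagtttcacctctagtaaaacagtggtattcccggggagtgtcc
Cpa3: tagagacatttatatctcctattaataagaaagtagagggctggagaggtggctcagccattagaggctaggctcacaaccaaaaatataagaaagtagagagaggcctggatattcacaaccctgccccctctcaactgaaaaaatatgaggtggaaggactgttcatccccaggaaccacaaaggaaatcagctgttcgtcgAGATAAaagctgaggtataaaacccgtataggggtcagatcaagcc
Ms4a2: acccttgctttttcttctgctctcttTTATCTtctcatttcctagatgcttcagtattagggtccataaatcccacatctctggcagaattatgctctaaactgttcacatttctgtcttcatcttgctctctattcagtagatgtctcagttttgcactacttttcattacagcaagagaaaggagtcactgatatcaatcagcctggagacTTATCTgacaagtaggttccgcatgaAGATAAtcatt
Kit: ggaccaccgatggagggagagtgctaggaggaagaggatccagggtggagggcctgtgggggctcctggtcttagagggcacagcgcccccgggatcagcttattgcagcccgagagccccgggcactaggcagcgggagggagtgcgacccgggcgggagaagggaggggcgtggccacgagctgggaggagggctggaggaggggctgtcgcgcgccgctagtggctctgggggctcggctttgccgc

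The first base of the hexamer lay at position -103 from the start in Mcpt4, at -79 in Cma1, where it reads on the opposite strand, and at -46 in Cpa3. The promoter of Ms4a2 held 3, at -224, -37 and -11. The first of the entries for Kit is shown, and it has no capitals.

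Total expected counts ran from 27192359 to 46456500 per library. Il2rg, which encodes the common gamma chain of several cytokine receptors, was at 0.108 to 0.128 CPM in Tac111, 3.66 to 5.35 CPM in Tac146 and 4.80 to 5.16 CPM in B6. The summed level of 6 T cell markers was 0.325 to 0.611 CPM in Tac111, 0.750 to 1.37 CPM in Tac146 and 5.11 to 7.04 CPM in B6, so the label T cells stood on the strains with the lower values. The summed level of 6 ILC1 and NK cell markers was 0.686 to 0.769 CPM in Tac111, 10.8 to 15.3 CPM in Tac146 and 9.05 to 13.3 CPM in B6. Against these, 5 oral epithelium markers summed to 59209 to 98884 CPM over the 9 libraries, so the libraries are of whole tissue, in which fewer cells of a type and less RNA per cell cannot be told apart. Tac146 replicate 4 stood apart, at 43.9 on the second principal component (16.0% of the variance) where the other 8 libraries lay between -20.5 and 11.5, and the fold changes of Tac146 against B6 are given with and without it.

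All 10 mast cell genes were detected in every library, also in Tac111, where Il2rg was near 0, and none passed the test between strains. Their summed level was 203, 170 and 204 CPM in Tac111, 190, 169 and 69.6 CPM in Tac146, and 181, 203 and 156 CPM in B6. The means were 193 ± 19.4 CPM in Tac111, 143 ± 64.3 CPM in Tac146 and 180 ± 23.5 CPM in B6 (SD, n = 3 each). Tac146 replicate 4 was the low library, and the other 8 overlapped across strains. None of the 10 genes passed an adjusted p of 0.05 in edgeR in any of the 3 comparisons of strains, where 3.81% of all tested genes passed for Tac111 against B6, 0.303% for Tac146 against B6 and 8.89% for Tac111 against Tac146. At an unadjusted p under 0.05 the counts were 0, 0 and 1, the last being Ms4a2, and DESeq2 also called 0 in each.

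**Figure D1:**
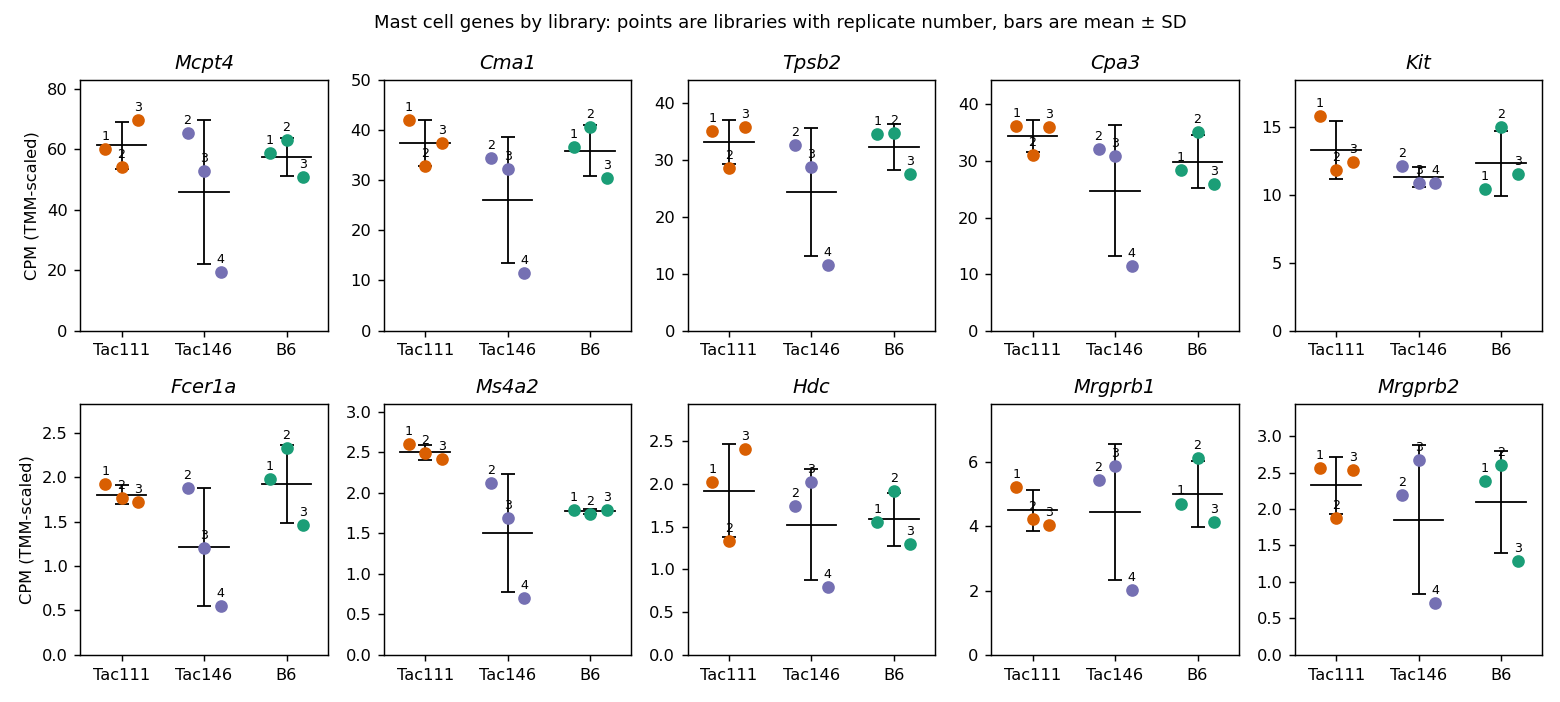
CPM of each mast cell gene in each library, 1 panel per gene, with Tac111 left, then Tac146, then B6, and bars at the mean. Tac146 replicate 4 lies below the other 8 libraries in every panel but that of Kit.

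Mcpt4 encodes a chymase, a serine protease of the granule. It had 60.0, 54.1 and 69.6 CPM in Tac111, 65.3, 52.9 and 19.4 CPM in Tac146, and 58.6, 63.0 and 50.7 CPM in B6, from 881 to 2954 counts per library. The strains overlapped, and the lowest value was Tac146 replicate 4. The log2 fold change was 0.09 (SE 0.33, 95% interval -0.63 to 0.82, adjusted p = 0.889 in edgeR) for Tac111 against B6, at means of 61.3 ± 7.82 CPM in Tac111 and 57.4 ± 6.27 CPM in B6 (SD, n = 3 each). For Tac146 against B6 it was -0.33 (95% interval -1.05 to 0.40), and without replicate 4 it was 0.04 (95% interval -0.26 to 0.34).

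Cma1 encodes a second chymase of connective-tissue mast cells. Its level was 42.0, 32.8 and 37.3 CPM in Tac111, 34.4, 32.3 and 11.6 CPM in Tac146, and 36.6, 40.7 and 30.5 CPM in B6. Again the values overlapped apart from Tac146 replicate 4. The log2 fold change of Tac111 against B6 was 0.06 (SE 0.31, 95% interval -0.64 to 0.75, adjusted p = 0.927 in edgeR). Tac146 against B6 gave -0.46 (95% interval -1.16 to 0.23), or -0.11 without replicate 4.

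Tpsb2, which encodes a granule tryptase, had 35.0, 28.6 and 35.7 CPM in Tac111, 32.6, 28.7 and 11.5 CPM in Tac146, and 34.5, 34.6 and 27.5 CPM in B6. Cpa3, which encodes the granule carboxypeptidase, had 36.2, 31.1 and 35.9 CPM in Tac111, 32.1, 30.8 and 11.4 CPM in Tac146, and 28.5, 35.1 and 26.0 CPM in B6. Both genes overlapped between strains, with Tac146 replicate 4 lowest. Tac111 against B6 gave log2 fold changes of 0.04 (95% interval -0.61 to 0.69) for Tpsb2 and 0.21 (95% interval -0.46 to 0.87) for Cpa3. Tac146 against B6 gave -0.41 and -0.27, and -0.07 and 0.08 without replicate 4, in the same order of genes.

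The proteases kept close ratios to each other. The count of Mcpt4 was 1.43 to 1.90 times that of Cma1 and 1.68 to 2.00 times that of Tpsb2 over all 9 libraries, Tac146 replicate 4 included. Tpsb2 had 29.1 to 48.8 times the count of Tpsab1, the neighbouring tryptase gene. Over the 9 libraries the 6 pairs of these 4 proteases had Pearson r of 0.974 to 0.991 and Spearman rho of 0.80 to 0.93 on log2 CPM, with adjusted p up to 0.0139 for r and up to 0.0622 for rho (exact permutation test, two-sided, Benjamini-Hochberg over 45 pairs of genes). Without Tac146 replicate 4, r was 0.654 to 0.888, and without the 2 libraries farthest from the median it was 0.506 to 0.906, so the size of the relation rests in part on that library. Over all 36 pairs of the 9 genes other than Kit, r was 0.715 to 0.991 and rho -0.033 to 0.93 with it, and r was -0.41 to 0.888 without it, so a relation of all 9 genes does not hold without that library.

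Kit encodes the receptor for KIT ligand, and is also carried by melanocytes. It had 15.8, 11.8 and 12.4 CPM in Tac111, 12.2, 10.9 and 10.9 CPM in Tac146, and 10.5, 15.0 and 11.6 CPM in B6. Here Tac146 replicate 4 was at the low end but not set apart, at 10.9 CPM like Tac146 replicate 3, and the lowest library was B6 replicate 1. The log2 fold change was 0.12 (SE 0.15, 95% interval -0.22 to 0.46, adjusted p = 0.679 in edgeR) for Tac111 against B6 and -0.12 (95% interval -0.46 to 0.22, adjusted p = 0.866) for Tac146 against B6, or -0.09 without replicate 4. With all 9 libraries these were the narrowest intervals of the 10 genes. Over the 9 libraries Kit had Pearson r of 0.391 to 0.508 and Spearman rho of 0.22 to 0.85 with the other 9 genes, with adjusted p of 0.197 or more for r and 0.0456 or more for rho, the lowest being that of Cpa3 (exact permutation test, two-sided). Without Tac146 replicate 4, r was 0.305 to 0.774, with 0.774 for Cma1 and 0.743 for Cpa3, and without the 2 libraries farthest from the median it was 0.155 to 0.859.

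In Tac146 replicate 4, Kit and the proteases parted. The count of Kit was 0.562 of that of Mcpt4 there, against 0.178 to 0.263 in the other 8 libraries. Kit was 15.7% of the summed CPM of the 10 genes in that library and 5.77 to 7.77% in the other 8. The 8 melanocyte markers summed to 9.63 CPM in that library and to 8.11 to 23.1 CPM in the other 8, with the highest value in Tac146 replicate 2. Their part in the level of Kit was not tested.

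**Figure D2:**
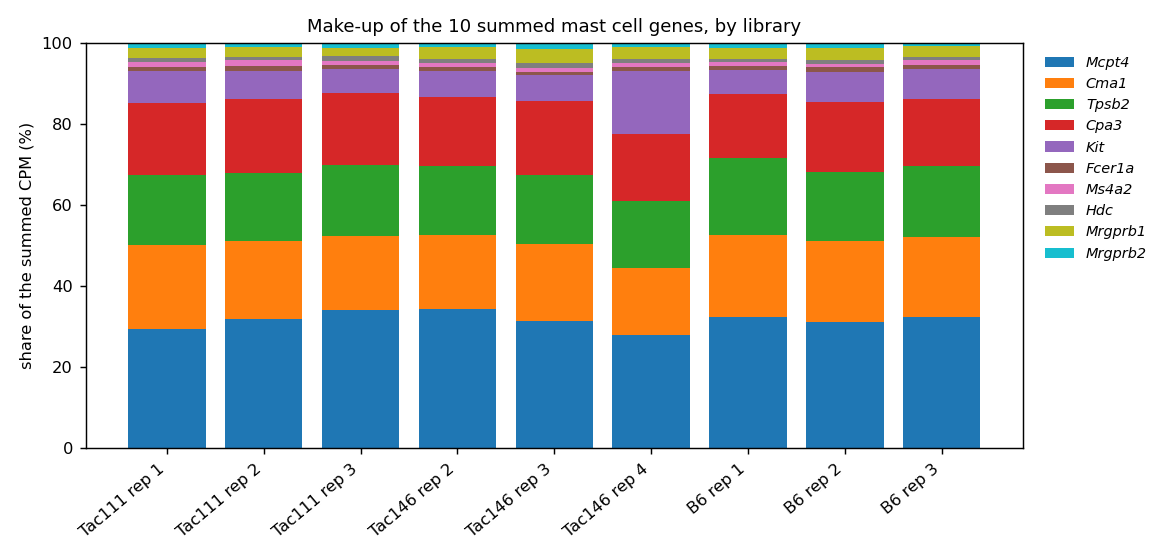
Share of each gene in the summed CPM of the 10 mast cell genes (percent, 1 stacked bar per library, Tac111 left, then Tac146, then B6). Kit takes 15.7% in Tac146 replicate 4 and 5.77 to 7.77% in the other 8 libraries.

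Fcer1a encodes the alpha chain of FcεRI, which binds IgE, and Ms4a2 the beta chain, which amplifies its signal. Fcer1a had 1.92, 1.77 and 1.72 CPM in Tac111, 1.88, 1.20 and 0.551 CPM in Tac146, and 1.98, 2.33 and 1.46 CPM in B6, from 25 to 85 counts per library. The log2 fold change was -0.09 (95% interval -0.89 to 0.70) for Tac111 against B6. For Tac146 against B6 it was -0.67 (SE 0.36, 95% interval -1.47 to 0.13, adjusted p = 0.763 in edgeR), and -0.30 without replicate 4.

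Ms4a2 was the gene whose Tac111 libraries stood above all others. It had 2.60, 2.49 and 2.41 CPM in Tac111, 2.12, 1.69 and 0.705 CPM in Tac146, and 1.79, 1.74 and 1.79 CPM in B6, from 32 to 96 counts per library. All 3 Tac111 libraries were higher than every Tac146 and every B6 library. Of all tested genes 13.7% were higher without overlap in Tac111 than in B6, and 17.1% in Tac111 than in Tac146, which is near the share of the 10 genes. Of all tested genes 12.7% did not overlap between Tac146 and B6 in either direction. Among the 10 genes there were 0 such genes, which is near that share for so few genes. The log2 fold change was 0.49 (SE 0.32, 95% interval -0.20 to 1.19, adjusted p = 0.374 in edgeR) for Tac111 against B6. Its adjusted p under alternatives was 0.113 to 0.573, with 0.113 without Tac146 replicate 4 and 0.128 with only the 6 libraries compared. For Tac111 against Tac146 it was 0.74 (SE 0.31, 95% interval 0.04 to 1.43, unadjusted p = 0.0405, adjusted p = 0.145 in edgeR, alternatives 0.0544 to 0.356), and 0.38 (adjusted p = 0.236) without Tac146 replicate 4. For Tac146 against B6 it was -0.24, or 0.11 without replicate 4. The count of Ms4a2 was 1.35, 1.41 and 1.41 times that of Fcer1a in Tac111, 1.13, 1.41 and 1.28 times in Tac146 and 0.904, 0.746 and 1.23 times in B6, a ratio set out after its values were seen.

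Hdc encodes histidine decarboxylase, which makes histamine. It had 2.02, 1.34 and 2.41 CPM in Tac111, 1.75, 2.03 and 0.794 CPM in Tac146, and 1.55, 1.91 and 1.29 CPM in B6. The strains overlapped, and the log2 fold change was 0.29 (95% interval -0.47 to 1.05) for Tac111 against B6 and -0.07 (95% interval -0.83 to 0.69) for Tac146 against B6, or 0.25 (95% interval -0.36 to 0.85) without replicate 4.

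Mrgprb2 encodes a mast cell receptor for basic secretagogues and Mrgprb1 a relative from the same cluster of receptors. Mrgprb1 had 5.23, 4.23 and 4.04 CPM in Tac111, 5.44, 5.87 and 2.03 CPM in Tac146, and 4.70, 6.12 and 4.14 CPM in B6. Mrgprb2 had 2.56, 1.88 and 2.53 CPM in Tac111, 2.19, 2.67 and 0.705 CPM in Tac146, and 2.39, 2.61 and 1.29 CPM in B6. The strains overlapped for both, and B6 replicate 3 was the second lowest library for Mrgprb2. Tac111 against B6 gave log2 fold changes of -0.15 (95% interval -0.88 to 0.59) for Mrgprb1 and 0.15 (95% interval -0.77 to 1.07) for Mrgprb2. Tac146 against B6 gave -0.17 for Mrgprb1 and -0.20 for Mrgprb2, and without replicate 4 it gave 0.18 and 0.20 for them. Of 5 further genes of the family, Mrgprb3 alone was tested and was not called in any comparison, while Mrgprb4 and Mrgprb5 had no count in any library.

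**Figure D3:**
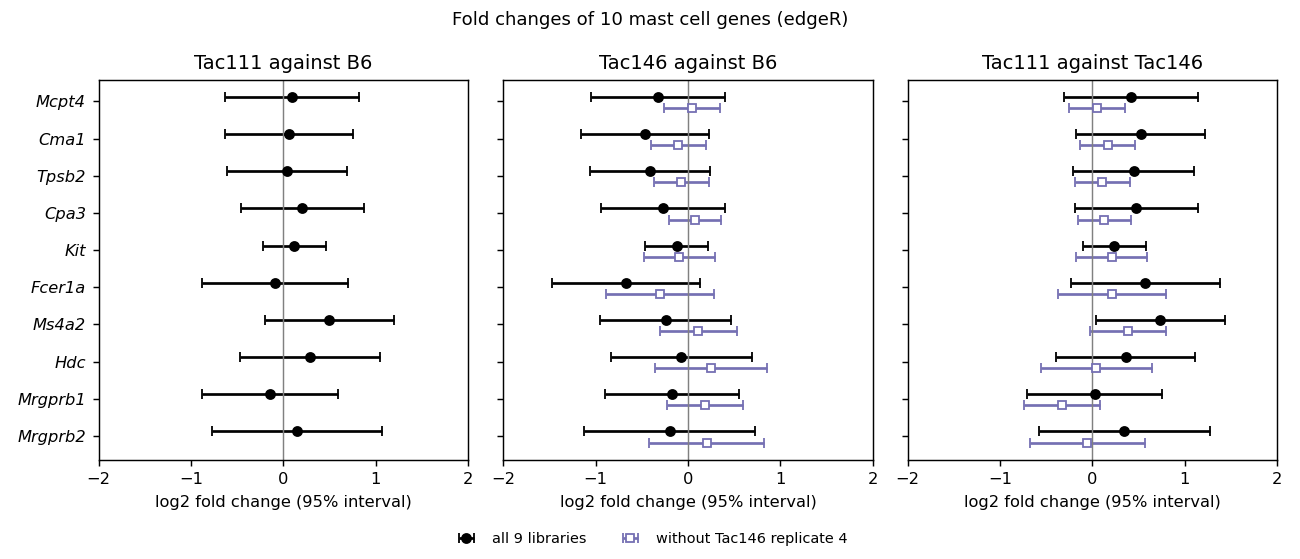
Log2 fold changes of the 10 mast cell genes with 95% intervals for Tac111 against B6, Tac146 against B6 and Tac111 against Tac146 (black, all 9 libraries; open squares, without Tac146 replicate 4). The intervals of Tac111 against B6 lie within -0.89 and 1.19, and all of them cover 0.

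Over the 10 genes, the median log2 fold change was 0.10 for Tac111 against B6, -0.26 for Tac146 against B6 and 0.43 for Tac111 against Tac146, where the medians of all tested genes were 0.02, 0.01 and 0.02. Of the 10 values, 8, 0 and 10 were above 0, in the same order. The comparisons share libraries and the genes vary together, so these counts are not separate evidence. Without Tac146 replicate 4 the medians of the comparisons with Tac146 were 0.06 (against B6, 6 values above 0) and 0.12 (Tac111 against Tac146, 8 values above 0), with intervals from -0.89 to 0.85 and from -0.74 to 0.80. For Tac111 against B6 no interval reached below -0.89 or above 1.19. The intervals of Tac111 against B6 rest on a spread shared by all 9 libraries, Tac146 replicate 4 included.

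Tac146 replicate 4 was the lowest of the 9 libraries for 9 of the 10 genes, all but Kit, as it was for 21.4% of all tested genes. Its level was 0.290 (Mrgprb2) to 0.421 (Hdc) of the mean of Tac146 replicates 2 and 3 for those 9 genes, and 0.946 for Kit. A level under 0.5 of that mean was found for 2.64% of all tested genes, and the median over all of them was 1.00. This library was singled out after its values were seen, and no test was made. Its 5 fibroblast markers summed to 849 CPM, against 1620 and 1332 CPM in Tac146 replicates 2 and 3, and its 4 skeletal muscle markers to 11681 CPM, against 17796 to 22640 CPM in the other 8 libraries. Its 5 epithelium markers were 1.18 times, and its 4 endothelial markers 0.999 times, the mean of the other Tac146 libraries. The part of these tissue contents in the levels of the mast cell genes was not tested.

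**Figure D4:**
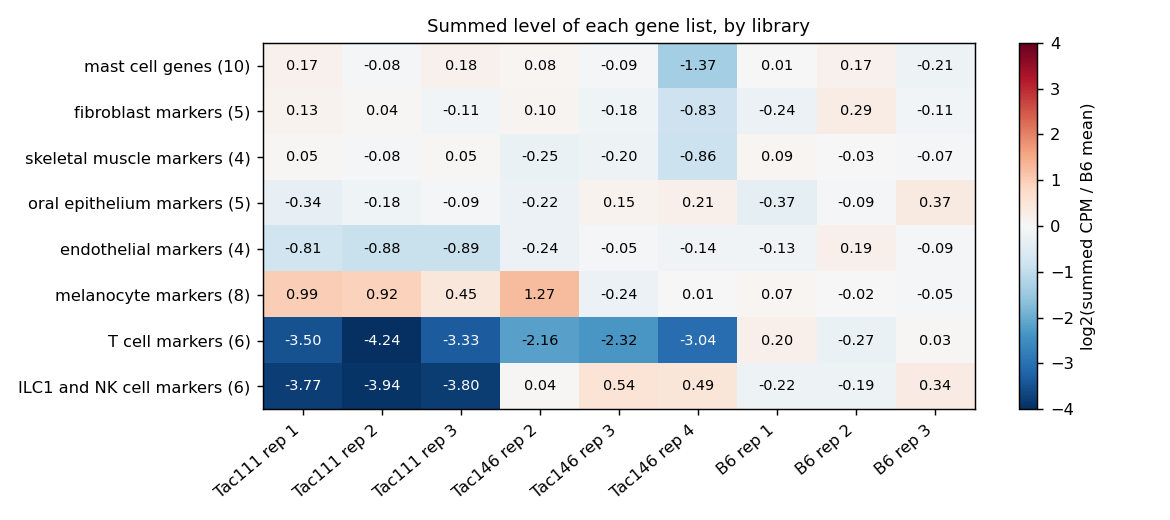
Summed CPM of each gene list in each library as log2 of its ratio to the B6 mean (columns Tac111, Tac146, B6, rows lists). The mast cell genes are low in Tac146 replicate 4, while T cell markers are low in all Tac111 and Tac146 libraries and ILC1 and NK cell markers in Tac111.

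Per kilobase of the longest coding transcript, the order of levels was Mcpt4, Cma1, Tpsb2, Cpa3, Kit and Fcer1a in each strain. In Tac111 the means were 55.3 ± 7.06, 34.3 ± 4.20, 25.7 ± 3.04, 23.7 ± 1.99, 2.55 ± 0.409 and 1.81 ± 0.108 CPM per kb (SD, n = 3). In Tac146 they were 41.4 ± 21.4, 23.9 ± 11.6, 18.8 ± 8.70, 17.1 ± 8.02, 2.16 ± 0.139 and 1.21 ± 0.666 CPM per kb. There the ranges of neighbours among the 4 proteases overlapped over the libraries, with replicate 4 low in all 4. Within the Tac146 libraries the count of Mcpt4 was 1.90, 1.64 and 1.68 times that of Cma1. In B6 they were 51.8 ± 5.66, 33.0 ± 4.69, 25.0 ± 3.18, 20.6 ± 3.25, 2.36 ± 0.455 and 1.93 ± 0.440 CPM per kb. Over the libraries the ranges of Tpsb2 and Cpa3 overlapped, as did those of Kit and Fcer1a in B6. Such overlap does not settle their order, as both genes of a pair were measured in the same library. Within a library the count of Tpsb2 was 0.920 to 1.21 times that of Cpa3, at lengths of 1.289 and 1.449 kb. The other 4 genes lay between 0.804 and 1.12 CPM per kb in Tac111 and between 0.663 and 1.19 CPM per kb in B6, and changed places between strains.

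The genes most like the mean profile of the 4 proteases over the 9 libraries, by Pearson r on log2 CPM, were Rev1 (0.988), Ndn (0.987), Cyp11a1 (0.987), Fam76a (0.987) and Tef (0.986). Rev1 was at 14.5 CPM in Tac146 replicate 4 and 19.7 to 22.3 CPM in the other 8 libraries. Tef was at 149 and 284 to 310 CPM, and Cyp11a1 at 0.617 and 2.53 to 3.49 CPM, in the same order. All 5 were low in that library, and without it r was 0.779 to 0.865. Among 14611 genes ranked, the fibroblast gene Lum stood at 12 and the granule protease gene Ctsg at 61, each the highest of its list. The other fibroblast markers stood at 76 (Dcn) to 2778 (Col1a1). The other tested granule and mediator genes stood at 164 (Tpsab1) to 11056 (Ndst2, r of -0.46). The skeletal muscle markers stood at 115 (Myh4) to 461 (Tnnt3).

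Other genes of the mast cell programme were compared for Tac111 against B6, where 2.8% of all tested genes were called lower, and for Tac111 against Tac146, where 6.27% were. Of 15 further granule and mediator genes 12 were tested, 2 fell and none rose, with a median log2 fold change of -0.17. Srgn was not called (log2 fold change -0.55, adjusted p = 0.0594 in edgeR for Tac111 against B6). It was called in 6 of 14 alternatives, with an adjusted p of 0.0112 to 0.165 over them. Hpgds, the prostaglandin D synthase of blood cells, had 2.92, 2.06 and 2.91 CPM in Tac111, 8.85, 6.30 and 5.22 CPM in Tac146, and 6.23, 5.71 and 5.83 CPM in B6. Alox5, which starts leukotriene synthesis, had 3.30, 3.00 and 3.72 CPM in Tac111, 7.50, 6.48 and 6.44 CPM in Tac146, and 7.30, 5.22 and 6.53 CPM in B6. All Tac111 libraries lay below all others for both. Hpgds fell by 1.17 (SE 0.21, adjusted p = 0.0129, or 0.0599 without Tac111 replicate 2) and Alox5 fell by 0.93 (SE 0.16, adjusted p = 0.00993, or 0.0529 without Tac111 replicate 2) on the log2 scale in edgeR. Both also fell in Tac111 against Tac146 (adjusted p = 0.00446 for Hpgds and 0.00445 for Alox5), and in Tac146 against B6 none of the 12 was called. The mucosal chymase genes were at or near 0, with 3 counts of Mcpt1 and 1 count of Mcpt2, each in B6 replicate 1.

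Among 12 tested genes of FcεRI and KIT signalling, 2 fell in Tac111 against B6 and none rose, with a median log2 fold change of -0.38. Lyn, the kinase that phosphorylates the receptor chains, had 5.26, 4.88 and 5.18 CPM in Tac111 and 9.09, 11.0 and 7.36 CPM in B6. It fell by 0.84 (adjusted p = 0.0129 in edgeR), with 0.0649 without Tac111 replicate 2 and 0.0506 without Tac111 replicate 3. Inpp5d, which encodes the inositol phosphatase SHIP, fell by 0.77 (adjusted p = 0.0490), a call lost in 8 of 14 alternatives, on leaving out any of the 6 libraries compared or Tac146 replicate 2 or 3 (adjusted p up to 0.190). Fcer1g, the signalling chain of FcεRI shared with other Fc receptors, had 6.38, 6.79 and 7.15 CPM in Tac111 and 9.21, 8.94 and 7.98 CPM in B6, with a log2 fold change of -0.36 (adjusted p = 0.351). Lyn and Inpp5d were also lower in Tac111 than in Tac146, with adjusted p on leaving out each library of 0.0247 to 0.10 for Lyn and 0.00648 to 0.0887 for Inpp5d.

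Of 12 growth factor and receptor genes 8 were tested, and 2 fell in Tac111 against B6. Csf2rb, the shared beta chain of the interleukin 3 and GM-CSF receptors, had 5.45, 4.44 and 4.65 CPM in Tac111, 10.9, 11.0 and 11.3 CPM in Tac146, and 8.35, 11.3 and 10.3 CPM in B6. It fell by 1.04 on the log2 scale (SE 0.14, adjusted p = 0.00221 in edgeR) and kept its call under all 14 alternatives. Il9r, which encodes the interleukin 9 receptor, had 0 counts in each Tac111 library, 8, 10 and 18 counts in Tac146, and 12, 7 and 10 counts in B6. It was at least 8.94-fold lower in Tac111 than in B6 (floor of 3 counts over the group, adjusted p = 0.0122). Against Tac146 both genes also fell, by at least 9.09-fold for Il9r, and so did Il1rap (log2 fold change -0.47, adjusted p = 0.0168, up to 0.0543 on leaving out a library and 0.0955 with a replicate block). Kitl, the KIT ligand gene, had a log2 fold change of -0.21 (adjusted p = 0.428) for Tac111 against B6.

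**Figure D5:**
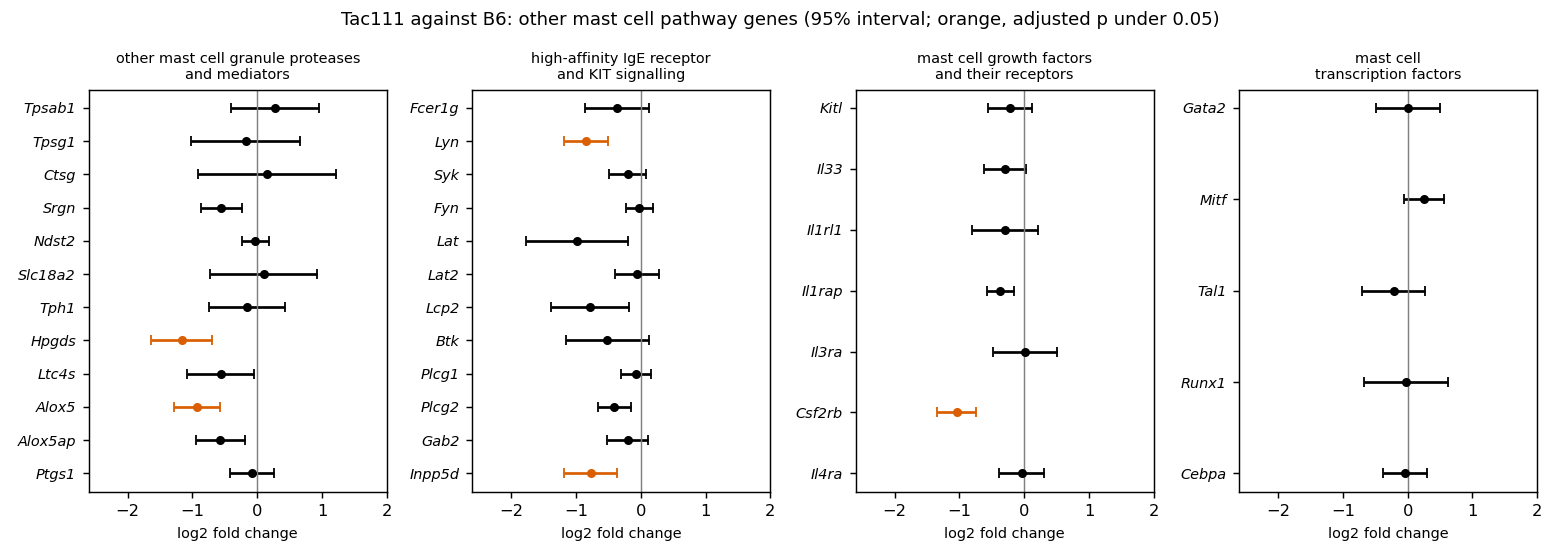
Log2 fold changes of Tac111 against B6 with 95% intervals for the tested genes of the other mast cell lists, orange where the adjusted p was under 0.05. Il9r, at 0 in Tac111, is not drawn, and the orange genes Hpgds, Alox5, Lyn, Inpp5d and Csf2rb all lie below 0.

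Hpgds, Alox5, Lyn, Inpp5d and Csf2rb are also used by other leukocytes. Ptprc, which marks all leukocytes, was at 4.49 to 5.06 CPM in Tac111, 10.1 to 12.5 CPM in Tac146 and 10.8 to 11.9 CPM in B6 (log2 fold change of Tac111 against B6 -1.26, adjusted p = 0.000389 in edgeR). In the same comparison 4 of 5 tested T cell markers, 4 of 5 tested ILC1 and NK cell markers and 4 of 4 endothelial markers fell. The median log2 fold change was -5.86 for the ILC1 and NK cell markers and -0.84 for the endothelial markers. For the T cell markers the median was that of Cd3d, with 0 counts in each Tac111 library. It was at least 25.6-fold lower than in B6 (floor of 3 counts over the group). The part of these cells in the calls above was not tested. Of the mast cell transcription factors 5 of 6 were tested and none was called in any comparison. Gata2, a GATA factor of mast cells, was at 4.86 ± 0.157 CPM in Tac111, 4.63 ± 1.31 CPM in Tac146 and 4.87 ± 1.12 CPM in B6 (SD, n = 3 each), with a log2 fold change of 0.00 and an adjusted p of 0.999 for Tac111 against B6.

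Markers of other cells that share genes with mast cells were detected at levels that differed by list. The 5 neutrophil markers summed to 2.38 to 3.43 CPM in Tac111, 3.96 to 6.45 CPM in Tac146 and 3.65 to 4.41 CPM in B6. Most of these counts were of Cxcr2, a chemokine receptor of neutrophils, with 65, 76 and 55 counts in Tac111, 140, 183 and 239 counts in Tac146, and 123, 87 and 118 counts in B6, while Ly6g had none. All 3 Tac111 libraries were the lowest, by CPM, and Cxcr2 fell in Tac111 against Tac146 (log2 fold change -1.12, SE 0.27, adjusted p = 0.0320 in edgeR), a call lost in 7 of 14 alternatives. It was lost without Tac111 replicate 1 or 3, Tac146 replicate 3 or 4, or B6 replicate 2 (adjusted p of 0.0522 to 0.115), with only the 6 libraries compared (0.0652) and with a replicate block (0.155). For Tac111 against B6 the adjusted p of Cxcr2 was 0.212. The other tested markers split and were not called. In Tac111, Csf3r had log2 fold changes of -0.33 against B6 and -0.53 against Tac146, and Mmp8 had 1.24 and 0.73. Retnlg, not tested, had 9 counts in Tac111, 8 in Tac146 and 1 in B6, so the markers did not fall as a list. The 4 eosinophil markers summed to 0 to 0.181 CPM in Tac111, 0.154 to 0.708 CPM in Tac146 and 0.0663 to 0.313 CPM in B6, and none passed the filter on low counts. Siglecf and Ccr3 each had 16 counts in Tac146 replicate 2, and Epx had none in any library. The basophil protease gene Mcpt8 had 1 count in all libraries together. The 3 basophil markers summed to 0.901 to 1.35 CPM in Tac111, 0.485 to 1.04 CPM in Tac146 and 0.501 to 1.16 CPM in B6. Of 6 tested melanocyte markers 1, Mlana, was called higher in Tac111 against B6, where 168 of 16523 tested genes were. Its log2 fold change was 2.16 (adjusted p = 0.0443 in edgeR, 0.0318 to 0.158 on leaving out each library). Sox10 was the only one of the 6 with a negative value (-0.21). The 8 markers summed to 13.1 to 19.0 CPM in Tac111, 8.11 to 23.1 CPM in Tac146 and 9.24 to 10.05 CPM in B6. The part of these cells in the levels of the mast cell genes was not tested.

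Mcpt4 and Cma1 lie in the chymase cluster of chromosome 14 (GRCm38), Mcpt4 at 56059629 to 56062313 and Cma1 at 55941451 to 55944675, both on the minus strand. Granzyme genes share that cluster, among them Gzmc at 56231441 to 56234656, which encodes a granzyme of cytotoxic lymphocytes. Gzmc had 0 counts in each Tac111 library, 283, 299 and 365 counts in Tac146, and 187, 134 and 208 counts in B6. It was at least 163-fold lower in Tac111 than in B6 (adjusted p = 7.24e-05 in edgeR) and at least 239-fold lower than in Tac146 (adjusted p = 2.98e-05). Ctsg, between the chymases and the granzymes, had a log2 fold change of 0.15 (adjusted p = 0.882) for Tac111 against B6. Tpsb2 lies at chr17:25366305-25369098, Cpa3 at chr3:20215620-20242181, Kit at chr5:75574916-75656722, Fcer1a at chr1:173221284-173227214 and Ms4a2 at chr19:11615523-11623719. Hdc lies at chr2:126593667-126619299, and Mrgprb1 at chr7:48444113-48456342 near Mrgprb2 at chr7:48550965-48558086. Of the windows of 50 bases in the transcripts, 5.48% of those of Mcpt4, 5.38% of those of Cma1 and 2.69% of those of Ms4a2 are shared with other genes, so their counts carry that uncertainty.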

How the data were processed

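RNA of labial mucosa was sequenced after polyA selection with a stranded kit, per the labels' protocols. Expected counts were deposited by the authors, per the file headers; they are estimates per gene and often not whole (2710 to 3195 such values per library). The submitters' processing notes name STAR, RSEM and GRCm38. Their versions and the use of strand in counting are not known here. Of 55450 gene lines, 107 symbols on several lines were summed, and 1 blank line was left out. Counts were rounded for edgeR 4.0.16 in R 4.3.3. Its quasi-likelihood model had a mean for each strain, TMM scaling, the default expression filter and 6 residual degrees of freedom over the 9 libraries. P-values were adjusted by Benjamini-Hochberg over 16523 genes and called at 0.05. The SE, taken from the F statistic, is approximate, and the 95% intervals rest on it. The floor of 3 counts covers counting error only. Nothing says that libraries came from separate animals, so p-values measure only the spread between these libraries, which may be technical.

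The members and gene lists were chosen with earlier results of these data known. The rule for names took all 10 members, the 4 called genes per list with the lowest adjusted p, and the 5 genes most like the mean profile of the 4 proteases (predicted genes and pseudogenes left out). Other genes were named after their values were seen. Transcript lengths, positions and shared windows came from GENCODE M21 (GRCm38), matched by symbol. The alternatives were median-ratio factors, DESeq2 1.42.0, a fit without the low-count filter, a replicate block, a fit to the 6 libraries compared, and each library left out. For genes that are not members they were added after seeing the data. The test was checked on simulated data.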

Additional observations from a re-analysis of the deposited data

How the results depend on the processing

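None of the 10 mast cell genes was called in any comparison under any alternative. Of 420 values of these genes under alternatives, 391 kept their direction and 29 changed sign. With a replicate block, Tac146 against B6 gave Mcpt4 0.040, Cpa3 0.082, Ms4a2 0.12, Hdc 0.25, Mrgprb1 0.23 and Mrgprb2 0.30, and Tac111 against Tac146 gave Mrgprb1 -0.37 and Mrgprb2 -0.14 (log2 fold changes). That block leaves Tac146 replicate 4, the only library of its number, without weight. Leaving out each library, Tac111 against B6 ranged over -0.013 to 0.18 for Mcpt4, -0.046 to 0.16 for Cma1, -0.063 to 0.13 for Tpsb2, -0.024 to 0.28 for Kit, -0.25 to 0.059 for Fcer1a, -0.27 to 0.022 for Mrgprb1 and -0.10 to 0.32 for Mrgprb2. Tac146 against B6 ranged over -0.68 to 0.042 for Mcpt4, -0.52 to 0.077 for Cpa3, -0.23 to 0.043 for Kit, -0.61 to 0.11 for Ms4a2, -0.32 to 0.25 for Hdc, -0.41 to 0.18 for Mrgprb1 and -0.54 to 0.20 for Mrgprb2. Tac111 against Tac146 ranged over -0.33 to 0.27 for Mrgprb1 and -0.054 to 0.69 for Mrgprb2. The cause was not tested.

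Counts of all genes called moved more. For Tac111 against B6 (630) they were 1213 with DESeq2, 1020 with no filter and 295 (without Tac111 replicate 2) to 958 (without Tac146 replicate 4) on leaving out a library. For Tac146 against B6 (50) they were 136 with DESeq2, 129 with no filter, 26 with only the 6 libraries compared and 33 (without B6 replicate 2 or 3) to 64. For Tac111 against Tac146 (1469) they were 2677 with DESeq2, 632 with the replicate block, 641 with only the 6 libraries compared and 470 (without Tac111 replicate 3) to 1829. The replicate numbers do not pair the libraries: deviations of same-numbered libraries correlated at -0.09 to 0.02 for Tac111 and B6, 0.05 to 0.08 for Tac146 and B6, and -0.07 to 0.21 for Tac111 and Tac146. Fcer1a, Ms4a2, Hdc and Mrgprb2 had 25 to 100 counts per library and SEs of 0.32 to 0.42 for Tac111 against B6, beside 0.33 for Mcpt4 with 881 to 2954 counts. Where no library is left out, the intervals rest on a spread estimated over all 9 libraries, 3 per strain. Tac146 replicate 4 thus enters those of Tac111 against B6 too. For Mcpt4 in Tac146 against B6 the SE was 0.33 with that library and 0.14 without it. The adjusted p of Mcpt4 for Tac111 against B6 was 0.889 with it and 0.661 without it in edgeR.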
